A study of Mus musculus with 10 samples.

Results

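The genes described here are 9 mRNAs that earlier work had reported as targets of miR-25 or of a miRNA with the same seed. They were chosen by symbol, with no value of these data in the rule, and all 9 were found among the 55401 gene rows of the count files. They are *Bcl2l11*, *Fbxw7*, *Lats2*, *Klf4*, *Smad7*, *Rgs3*, *Ncoa3*, *Kat2b* and *Map2k4*, and each passed the filter on low counts together with 15812 other genes. Bulk RNA sequencing covered 10 subcutaneous tumors of B16F10, a mouse melanoma cell line, taken on day 15 from C57BL/6J hosts, which the methods give as females of 9 to 12 weeks. The KO group held 5 tumors of cells in which *Mir25* had been targeted with CRISPR-Cas9, and the NTC group held 5 tumors of cells carrying a non-targeting control guide. Both groups received Comb, which joins GVAX (irradiated B16 cells that secrete GM-CSF, on days 1 and 4) with αPD-1 (10 mg/kg on days 6, 9 and 12), so no untreated tumor was compared. Only the injected melanoma cells were edited, and leukocytes, fibroblasts and vessels of the host kept an intact *Mir25*. The labels do not say which guide the KO tumors carried or whether the cells were a pool or 1 clone.

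A miRNA guides an Argonaute protein to mRNAs whose 3′ UTR pairs with its seed, the bases from position 2 to 8 counted from its 5′ end. Pairing lowers the stability or the translation of the mRNA, and mRNA counts record only the first of these. *Mir25* lies in an intron of *Mcm7* with *Mir106b* and *Mir93*, and miRNAs with its seed are also made from other loci, including the cluster that yields miR-92a. The reported targets act at different points of the cell: BIM, the product of *Bcl2l11*, starts apoptosis, FBXW7 marks growth-promoting proteins for degradation, LATS2 restrains YAP and TAZ, and SMAD7 inhibits TGF-β receptors. KLF4 is a transcription factor of epithelia and monocytes, RGS3 shortens G protein signaling, NCOA3 and KAT2B are transcriptional coactivators with acetyltransferase partners or activity, and MAP2K4 phosphorylates JNK and p38.

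The mature sequences of the family, from RefSeq on GRCm38.p6, are shown because the members were reported as their targets, with the seed in capitals. miR-25-3p is encoded at chr5:138165332-138165353 on the minus strand, inside an intron of *Mcm7*. Counted position by position from the 5′ end, miR-92a-3p shares 18 bases with miR-25-3p, miR-92b-3p 16, miR-32-5p 13, miR-367-3p 12 and miR-363-3p 9. The 6 distinct sequences share 1 seed.
miR-25-3p: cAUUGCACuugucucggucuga
miR-92a-3p: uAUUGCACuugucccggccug
miR-92b-3p: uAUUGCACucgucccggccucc
miR-32-5p: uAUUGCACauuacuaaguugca
miR-367-3p: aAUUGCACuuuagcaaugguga
miR-363-3p: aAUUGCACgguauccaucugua

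A match to this seed in a 3′ UTR reads GTGCAAT on the mRNA strand (a 7mer-m8), and GTGCAATA where an A follows it (an 8mer). The longest annotated 3′ UTR of 8 of the 9 members held an 8mer or a 7mer-m8, in GENCODE M21 on GRCm38. Among all 21037 protein-coding genes with a 3′ UTR, 6.56% held one, and 7.75% did among the 12901 of them past the filter. The members were picked as reported targets, a choice that usually leans on such matches, so their share is a description. An 8mer stood in *Bcl2l11*, *Fbxw7*, *Lats2*, *Klf4*, *Kat2b* and *Map2k4*, and *Map2k4* held 2. *Smad7* and *Ncoa3* held a 7mer-m8 and no 8mer, and *Ncoa3* and *Klf4* also held a 7mer-A1 (TGCAATA). The longest 3′ UTR of *Rgs3* belongs to a transcript that ends inside the gene and held no match, whereas an 8mer stood in another transcript that ends at the 3′ end of the gene. The best match of each member is shown with up to 20 bases before it and 2 after, the match in capitals and the sequence 5′ to 3′ on the mRNA strand. The site of *Smad7* is not shown.
Bcl2l11 (chr2:128162449-128162456, plus strand): gggtaattgccactgtacctGTGCAATAct
Fbxw7 (chr3:84979171-84979178, plus strand): tttattttcttataacttaaGTGCAATAaa
Lats2 (chr14:57690932-57690939, minus strand): gagcgtgaggcaagacgtctGTGCAATAag
Klf4 (chr4:55527367-55527374, minus strand): tatgcactgtggtttcagatGTGCAATAat
Rgs3 (chr4:62702762-62702769, plus strand): tcagttttcttaacttacaaGTGCAATAtc
Ncoa3 (chr2:166070542-166070548, plus strand): tcgtgtcgctctcctgtccaGTGCAATca
Kat2b (chr17:53672595-53672602, plus strand): aatattttcttatagatattGTGCAATAaa
Map2k4, nearer the stop codon (chr11:65690579-65690586, minus strand): attgctcgcccagacaccatGTGCAATAag
Map2k4, farther from it (chr11:65690181-65690188, minus strand): ggattccctttcttcaccaaGTGCAATAga

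The deletion itself could not be read from these libraries, since *Mir25* was at 0 counts in all 10. The study designed 3 guides against *Mir25*, shown because 2 of them lie over the sequence of the seed. sg2 and sg3 cover all 7 seed bases and sg1 none, on a hairpin of 84 bases, and capitals mark the seed, read on the opposite strand in sg3.
sg1: tgttgagaggcggagactt
sg2: cctgggcATTGCACttgtct
sg3: ccgagacaaGTGCAATgcc

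Between 23243707 and 27006075 reads were counted on genes in KO tumors and between 11896643 and 28682130 in NTC tumors. NTC replicate 1 stood apart, with the lowest total. Of its reads, 42.9% were assigned to no annotated feature in the counting, where the remaining 9 libraries had 17.5% to 28.2%. Its 33193 detected genes compare with 22192 to 25435 in those libraries. All 8 melanoma markers, among them *Pmel*, *Mlana* and *Tyr*, were above 1 CPM (the CPM scale divides counts by the TMM-normalized size of the library) in every tumor. A leukocyte score was built from 10 genes that white blood cells share, such as *Ptprc*, by averaging their log2 CPM. It ran from 5.36 to 7.72 in KO and from 4.29 to 7.04 in NTC tumors. KO replicates 5 and 2 and NTC replicate 1 had the highest scores, and NTC replicates 4 and 2 the lowest. The groups overlapped and the mean difference was 1.04 (two-sided exact permutation test, p = 0.175, adjusted p = 0.291 over 10 marker lists), which became 1.44 (exact p = 0.0952) without NTC replicate 1. The summed level of the 10 genes ran from 525 to 2804 CPM in KO and from 252 to 1764 CPM in NTC tumors, and none was at 0. The labels number the tumors without naming the mouse of each, and p-values measure the spread between these samples.

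Per kb of annotated exons, *Kat2b* had the highest level of the 9, at 26.4 ± 2.99 CPM per kb (SD over 10 tumors), and its lowest tumor lay above the highest of any other member. It was followed by *Map2k4* at 12.2 ± 1.22, *Ncoa3* at 9.23 ± 3.27 and *Fbxw7* at 6.61 ± 0.647 CPM per kb. *Map2k4* lay above *Ncoa3* in 7 of 10 tumors and *Ncoa3* above *Fbxw7* in 9, and the ranges of both pairs overlapped. The remaining 5 genes sat at lower levels, *Bcl2l11* at 3.33 ± 1.92, *Lats2* at 3.09 ± 0.561, *Klf4* at 2.97 ± 1.71, *Smad7* at 2.11 ± 0.348 and *Rgs3* at 1.92 ± 0.325 CPM per kb. Each of these 5 overlapped its neighbours, and *Bcl2l11* lay above *Lats2* in 4 of 10 tumors. Among the genes tested, *Kat2b* stood at the 89.9th percentile of level per kb and *Rgs3* at the 33.0th. The spread between tumors was uneven, since the highest tumor exceeded the lowest 4.96-fold for *Bcl2l11* and 4.88-fold for *Klf4*, but 1.31-fold for *Fbxw7* and 1.43-fold for *Map2k4*.

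**Figure D1:**
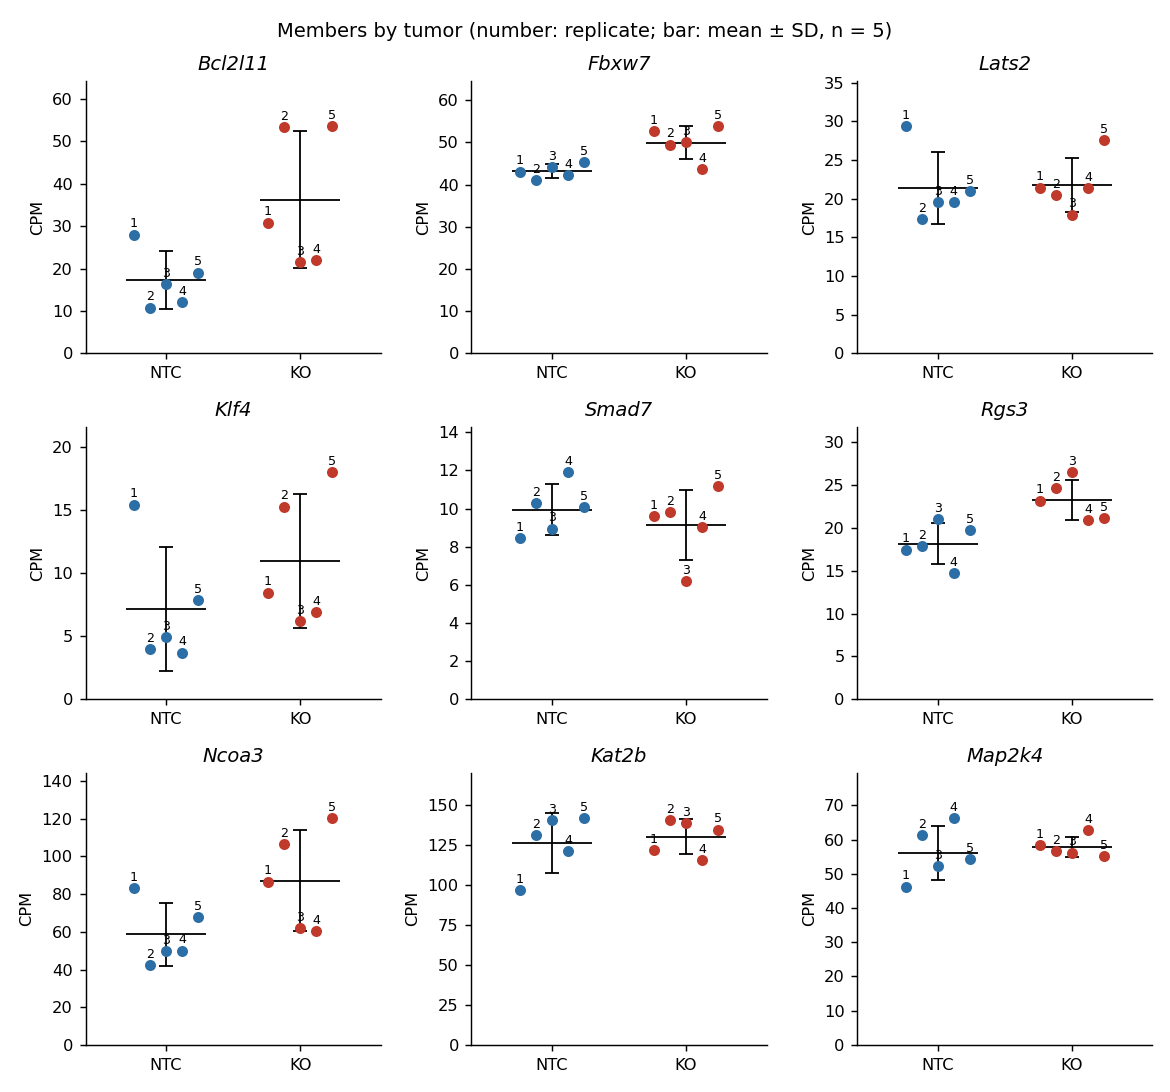
CPM of each member by tumor, with NTC in blue, KO in red, the replicate number above each point, and the mean ± SD (n = 5) in black on axes that start at 0. Bcl2l11, Klf4 and Ncoa3 spread most, with KO replicate 5 at the top and NTC replicate 1 above the other NTC tumors, while the KO tumors of Kat2b and Map2k4 lie inside a wider NTC range.

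*Bcl2l11* (ENSMUSG00000027381.16, chromosome 2, 128126038 to 128162547) showed the greatest difference between the groups among the 9. It stood at 30.8, 53.4, 21.4, 22.1 and 53.5 CPM in KO replicates 1 to 5 and at 28.0, 10.8, 16.4, 12.1 and 19.1 CPM in NTC replicates 1 to 5. KO replicates 1, 2 and 5 lay above every NTC tumor, and KO replicates 3 and 4 lay above 4 of the 5. The mean was 36.2 ± 16.1 CPM (SD, n = 5) in KO and 17.3 ± 6.84 CPM (SD, n = 5) in NTC tumors, a log2 fold change of 1.02 with a standard error of 0.38 and an adjusted p of 0.462 from edgeR's quasi-likelihood test. The 95% confidence interval reached from 1.13-fold to 3.60-fold. Without NTC replicate 1 the log2 fold change was 1.30 and the adjusted p 0.135 by edgeR. DESeq2 with no filter and without NTC replicate 1 gave 1.33 and called it (adjusted p = 0.00610), beside 2.25% of 35130 genes called higher in KO.

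With the leukocyte score as a covariate, the log2 fold change of *Bcl2l11* was 0.42 with a standard error of 0.11 (edgeR, adjusted p = 0.135), or 1.33-fold with an interval from 1.14-fold to 1.57-fold. Its standard deviation within groups, on the log2 scale, went from 0.65 to 0.12 in KO and from 0.54 to 0.16 in NTC tumors when values were set to the mean score. The slope used for this was fitted to these same values, so some narrowing is built in. At the mean score the KO tumors ran from 4.64 to 4.93 log2 CPM and the NTC tumors from 4.20 to 4.59, so the groups no longer overlapped. This held for *Bcl2l11* alone among the 9 members, and for 2.63% of all genes in this direction. DESeq2 gave the same difference of 0.42 with an adjusted p of 0.0333 and called it, beside 1.03% of 15821 genes called higher in KO. DESeq2 without a filter and without NTC replicate 1 did not call it with the score (0.47, adjusted p = 0.138). Over the alternatives of this fit, the adjusted p of *Bcl2l11* ran from 0.0333 to 0.298 and the log2 fold change from 0.34 to 0.92.

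*Fbxw7* (ENSMUSG00000028086.15, chromosome 3, 84815268 to 84979198), the substrate receptor of an SCF ubiquitin ligase, varied little. It stood at 52.6, 49.5, 50.1, 43.6 and 53.8 CPM in KO replicates 1 to 5 and at 43.1, 41.1, 44.1, 42.2 and 45.3 CPM in NTC replicates 1 to 5. All KO tumors but replicate 4 lay above every NTC tumor. Its log2 fold change was 0.19 with a standard error of 0.10 (edgeR, adjusted p = 0.627) and 0.09 with the leukocyte score as a covariate (adjusted p = 0.703). The second value ran from 0.0445 without KO replicate 3 to 0.129 without KO replicate 4, and was 0.0535 without KO replicate 1. The interval without the covariate reached from 0.980-fold to 1.32-fold.

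*Lats2* (ENSMUSG00000021959.16, chromosome 14, 57689662 to 57758388) encodes a kinase of the Hippo pathway. It stood at 21.4, 20.5, 17.9, 21.4 and 27.6 CPM in KO replicates 1 to 5 and at 29.4, 17.3, 19.5, 19.5 and 21.0 CPM in NTC replicates 1 to 5. The highest value was that of NTC replicate 1, and the groups overlapped throughout. The log2 fold change was -0.01 with a standard error of 0.20 (edgeR, adjusted p = 0.989), and -0.22 with the leukocyte score (adjusted p = 0.553). The value without the covariate turned to 0.17 without NTC replicate 1 and to 0.03 without the filter on low counts, and the value with the score was 0.00125 without NTC replicate 1. In GENCODE M21, 42.4% of the exon bases of *Lats2* are shared with *Gm49361* on the same strand, which was at 0 in every library, and reads on shared bases may have been dropped in counting.

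*Klf4* (ENSMUSG00000003032.8, chromosome 4, 55527143 to 55532466) was measured from 87 to 401 reads per tumor. It stood at 8.44, 15.3, 6.18, 6.89 and 18.0 CPM in KO replicates 1 to 5 and at 15.4, 3.94, 4.93, 3.69 and 7.85 CPM in NTC replicates 1 to 5. KO replicates 2 and 5 and NTC replicate 1, the 3 tumors with the highest leukocyte scores, were the 3 highest. The log2 fold change was 0.54 with a standard error of 0.50 (edgeR, adjusted p = 0.773), 1.09 without NTC replicate 1 (adjusted p = 0.186), 0.29 without KO replicate 5 (adjusted p = 0.983) and -0.09 with the leukocyte score (adjusted p = 0.888). With the score and without NTC replicate 1 it was 0.20 (adjusted p = 0.825).

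*Smad7* (ENSMUSG00000025880.11, chromosome 18, 75367529 to 75395935), an inhibitory SMAD, stood at 9.60, 9.80, 6.18, 9.05 and 11.2 CPM in KO replicates 1 to 5 and at 8.45, 10.3, 8.95, 11.9 and 10.1 CPM in NTC replicates 1 to 5. KO replicate 3 was the lowest of the 10 and the other KO tumors lay inside the NTC range. KO and NTC differed by a log2 fold change of -0.13 with a standard error of 0.17 (edgeR, adjusted p = 0.843), and -0.22 with the leukocyte score (adjusted p = 0.655). Without KO replicate 3 these values were -0.018 and -0.034. Its interval without the covariate, from 0.705-fold to 1.18-fold, leaves out a rise of the size fitted for *Bcl2l11*.

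*Rgs3* (ENSMUSG00000059810.18, chromosome 4, 62559847 to 62704001) stood at 23.2, 24.6, 26.5, 20.9 and 21.2 CPM in KO replicates 1 to 5 and at 17.5, 17.9, 21.0, 14.8 and 19.7 CPM in NTC replicates 1 to 5. Every KO tumor but replicate 4 lay above all NTC tumors, and replicate 4 lay below NTC replicate 3 only. The means were 23.3 ± 2.37 CPM in KO and 18.2 ± 2.38 CPM in NTC tumors (SD, n = 5 each). The log2 fold change was 0.33 with a standard error of 0.13 (edgeR, adjusted p = 0.482) and 0.26 with the leukocyte score (adjusted p = 0.424), the second of which became 0.145 without KO replicate 3. The order of the tumors differed from that of *Bcl2l11* and *Klf4*, since NTC replicate 1 was among the lowest and KO replicate 3 the highest.

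*Ncoa3* (ENSMUSG00000027678.17, chromosome 2, 165992636 to 166073242), a coactivator of nuclear receptors, stood at 86.6, 106.5, 61.9, 60.2 and 120.4 CPM in KO replicates 1 to 5 and at 83.3, 42.4, 49.6, 50.0 and 67.8 CPM in NTC replicates 1 to 5. KO replicates 1, 2 and 5 lay above all NTC tumors, and KO replicates 3 and 4 lay below NTC replicates 1 and 5. Its log2 fold change was 0.52 with a standard error of 0.28 (edgeR, adjusted p = 0.631), 0.73 without NTC replicate 1 (adjusted p = 0.170) and 0.11 with the leukocyte score (adjusted p = 0.721). The value with the score ran from 0.0258 without NTC replicate 3 to 0.191 without NTC replicate 1. At the mean score the 5 KO tumors lay between 6.13 and 6.22 log2 CPM, inside the NTC range of 5.77 to 6.34.

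*Kat2b* (ENSMUSG00000000708.14, chromosome 17, 53566861 to 53672720), a histone acetyltransferase, stood at 121.9, 140.9, 138.8, 115.6 and 134.9 CPM in KO replicates 1 to 5 and at 97.0, 131.4, 140.8, 121.2 and 142.1 CPM in NTC replicates 1 to 5. NTC replicate 1 was the lowest tumor and NTC replicate 5 the highest. *Map2k4* (ENSMUSG00000033352.11, chromosome 11, 65688243 to 65788297) stood at 58.3, 56.6, 56.2, 62.9 and 55.3 CPM in KO replicates 1 to 5 and at 46.2, 61.3, 52.3, 66.3 and 54.3 CPM in NTC replicates 1 to 5. All 5 KO tumors of *Map2k4* lay inside the NTC range. Both genes had a log2 fold change of 0.03, with standard errors of 0.09 for *Kat2b* and 0.08 for *Map2k4* (edgeR, adjusted p = 0.938 and 0.931). Their intervals, from 0.891-fold to 1.17-fold and from 0.904-fold to 1.16-fold, were the narrowest of the 9. *Map2k4*, which holds 2 of the 8mers shown above, was among the members that differed least.

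In no member did every KO tumor exceed every NTC tumor before adjustment, beside 0.999% of all genes. None was called at an adjusted p under 0.05 by edgeR in either direction, beside 0.0316% of the 15821 genes tested. At an unadjusted p under 0.05 there were 2 of 9, *Bcl2l11* and *Rgs3*, both higher in KO, beside 8.85% of all genes in either direction and 3.99% higher in KO. When 1 tumor was left out, this count ran from 0 of 9 without KO replicate 2, beside 6.21% of all genes, to 5 of 9 without NTC replicate 1. It was 1 without KO replicate 3 or 5 or NTC replicate 2 or 4, beside 6.23% to 8.43% of all genes, and 4 without KO replicate 4, beside 11.5%. The fitted difference was above 0 for 7 of 9 members, beside 51.3% of all genes, and their median log2 fold change was 0.19 against 0.01 over all genes. DESeq2 on the same 10 tumors also called none, beside 1.48% of 15762 genes, with 2 members at an unadjusted p under 0.05, beside 10.1%. With the leukocyte score, edgeR called none, beside 0.0632% of all genes, and 1 member had an unadjusted p under 0.05, beside 12.9%. In that fit 5 of 9 members were above 0, beside 50.6%, and the medians were 0.09 for the members and 0.0036 for all genes. The median of the members in that fit was 0.0262 without NTC replicate 3, 0.0445 without KO replicate 3, 0.0535 without KO replicate 1 and 0.130 without NTC replicate 1. Without NTC replicate 1 and without the covariate, 5 of 9 members had an unadjusted p under 0.05, beside 20.1% of 16078 genes, and none was called, beside 0.193% of genes called in either direction and 0.0373% called higher in KO.

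**Figure D2:**
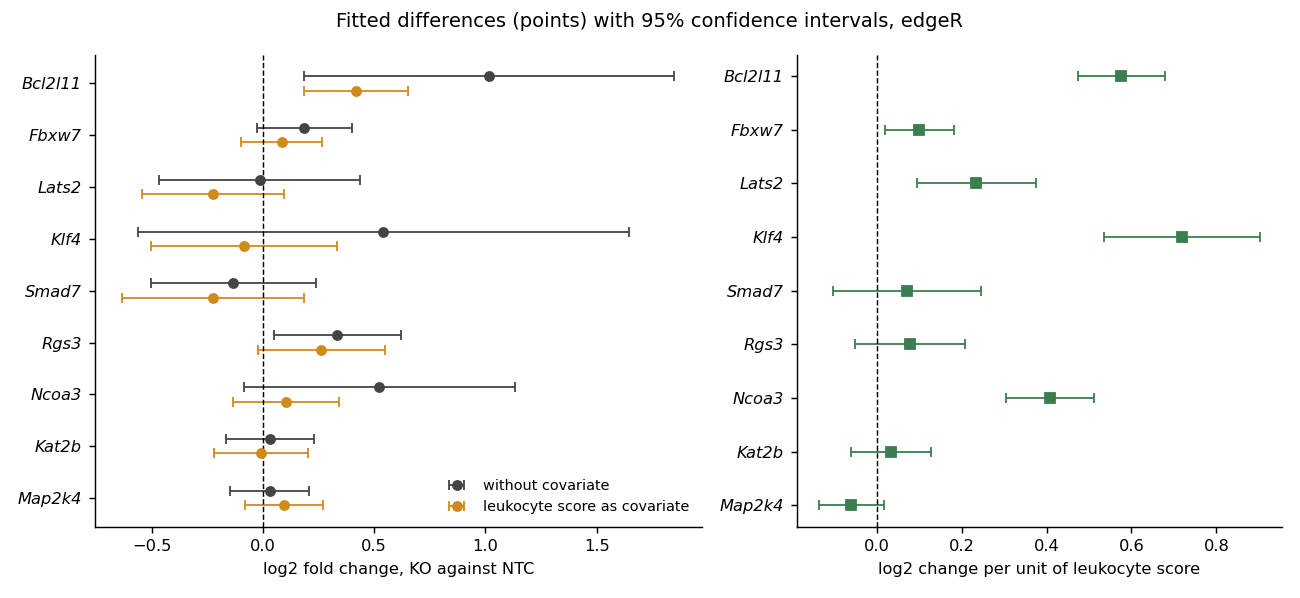
Left, fitted log2 fold change of KO against NTC for each member with its 95% confidence interval, without (grey) and with (orange) the leukocyte score as a covariate. Right, fitted log2 change per unit of the leukocyte score with its interval, where Bcl2l11, Klf4, Ncoa3 and Lats2 lie above 0 with an adjusted p under 0.05.

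The second term of that fit gives the change of each gene per unit of the leukocyte score, a doubling of the geometric mean of its markers, with the group held. Of the members, 4 of 9 were higher with the score at an adjusted p under 0.05 and none lower, beside 22.4% of all genes higher and 14.6% lower. *Klf4* changed by 0.72 log2 units per unit of score with a standard error of 0.08 (edgeR, adjusted p = 5.27e-05), *Bcl2l11* by 0.58 with a standard error of 0.05 (adjusted p = 2.61e-06), and *Ncoa3* by 0.41 with a standard error of 0.05 (adjusted p = 5.00e-05). *Lats2* changed by 0.23 with a standard error of 0.06 (adjusted p = 0.0138), but by 0.11 (adjusted p = 0.189) without NTC replicate 1, when 3 of 9 members were called beside 15.7% of 16078 genes. *Fbxw7* followed at 0.10 (adjusted p = 0.0512). It was 0.06 (adjusted p = 0.336) without NTC replicate 1 and was called without KO replicate 1 (adjusted p = 0.0484), without KO replicate 2 (adjusted p = 0.0426) and with at least 10 counts in every tumor (adjusted p = 0.0341). *Smad7*, *Rgs3*, *Kat2b* and *Map2k4* lay between -0.06 and 0.08 with adjusted p-values from 0.204 to 0.568. *Ptprc* itself, one of the 10 genes of the score and so no independent measure, had a log2 fold change of 0.88 between the groups (standard error 0.67, adjusted p = 0.734). In bulk tumors, fewer cells of a type and less RNA per cell cannot be told apart, and the counts do not say which cells gave the reads of a member.

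**Figure D3:**
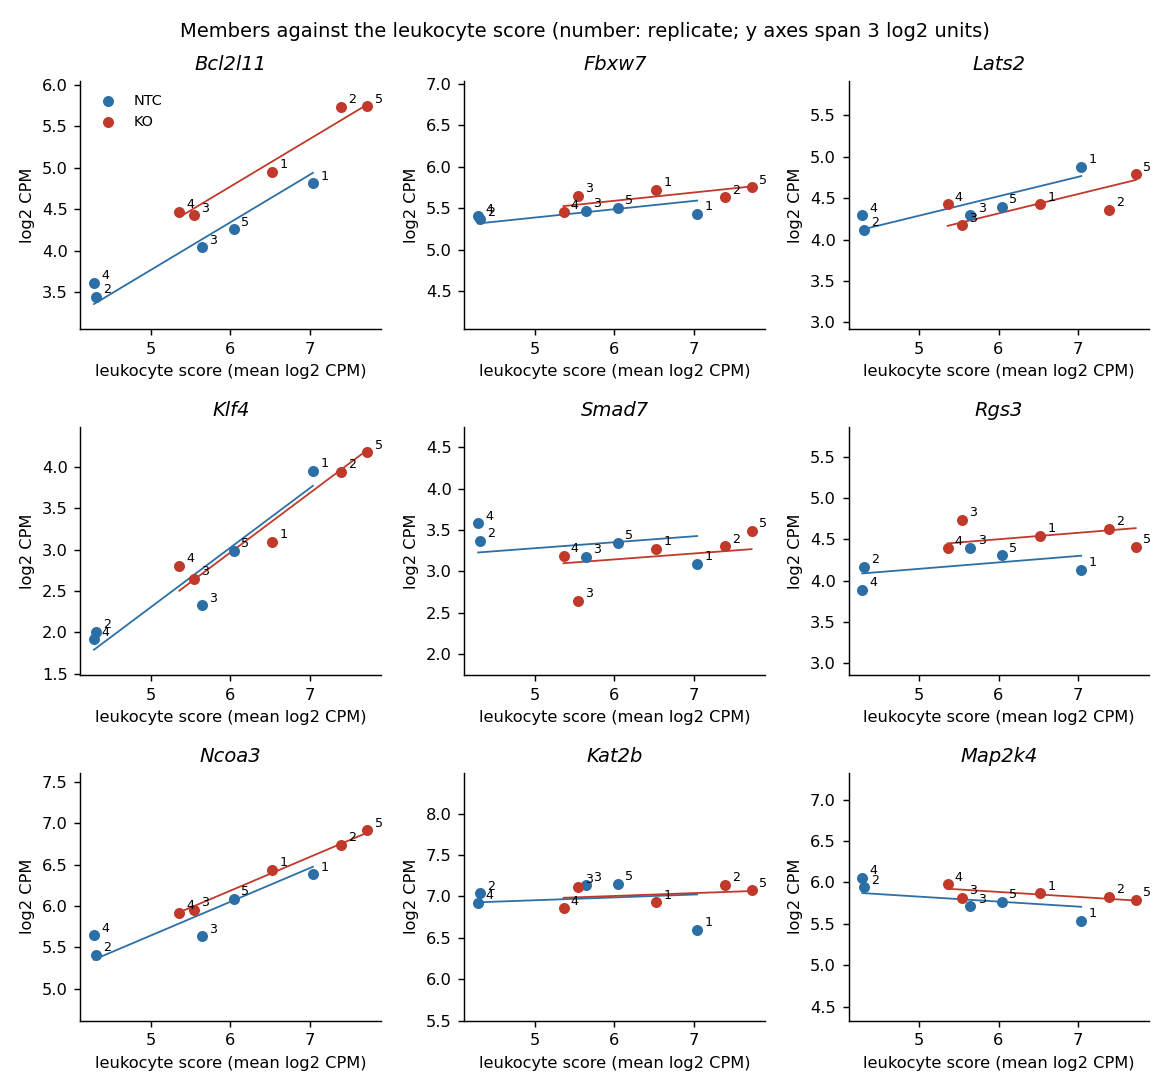
log2 CPM of each member against the leukocyte score of the same tumor, with NTC in blue, KO in red, the replicate number beside each point, and lines with the slope of the fit drawn through each group. For Bcl2l11 the KO line lies above the NTC line by 0.42, for Klf4 the lines nearly coincide, and for Kat2b and Map2k4 both are close to flat.

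Some of the other cell type markers were highest in the leukocyte-rich tumors and some were not. The macrophage score was higher in KO by 1.20 and the T cell score by 1.25 in the mean, the fibroblast score by 1.58 and the erythrocyte score by 1.77, and the melanoma score was lower by 0.09, or by 0.32 without NTC replicate 1 (exact p = 0.103). Over the 10 lists, adjusted p-values from the exact permutation test ran from 0.238 to 0.738, and the smallest unadjusted p was 0.0238, for the erythrocyte list, where 0.00794 is the smallest that 5 against 5 tumors allow. The erythrocyte genes summed to between 240.4 and 1559 CPM in KO and between 71.3 and 349 CPM in NTC tumors, with all 4 genes above 1 CPM in every tumor. Without NTC replicate 1 every KO tumor had a higher erythrocyte score than every NTC tumor (difference 2.06, exact p = 0.00794, the smallest possible), and the neutrophil difference was 2.05 (exact p = 0.0238), in place of 1.15 (exact p = 0.325) over all 10 tumors. In the KO tumors the skeletal muscle genes summed to between 1.79 and 179.9 CPM, and in the NTC tumors to between 1.08 and 2.85 CPM. They were highest in KO replicates 4 (179.9 CPM) and 3 (34.1 CPM), the KO tumors with the lowest leukocyte scores, as were the keratinocyte genes (5.83 and 20.2 CPM), and KO replicate 5 had 1.79 and 0.0897 CPM. The part of these cell types in the differences of the members was not tested, apart from the fits with a leukocyte, a melanoma or a joint leukocyte and fibroblast score. With the melanoma score in place of the leukocyte score, the log2 fold change was 0.92 for *Bcl2l11*, 0.51 for *Klf4* and 0.45 for *Ncoa3*, and no member was called, beside 0.702% of all genes. With the leukocyte and fibroblast scores together, that of *Bcl2l11* was 0.42 (adjusted p = 0.138).

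The genes around the members in their pathways, 109 tested of 111 listed in 9 groups, gave no call by edgeR in either fit, beside 0.0316% and 0.0632% of all genes. DESeq2 on the same tumors called 0 without the covariate, beside 1.48% of all genes, and with it 1 higher and 1 lower in KO, beside 2.52%. These were *Srebf2*, a regulator of sterol synthesis, at 0.46 (DESeq2, adjusted p = 0.0394), and the KLF factor *Klf6* at -0.54 (adjusted p = 0.0117), both named after their values were seen. DESeq2 without a filter and without NTC replicate 1 called 6 higher (*Tgfb1*, *Pmaip1*, *Rgs2*, *Rgs14*, *Klf2* and *Ago4*) and 1 lower (*Map3k4*) of 111, beside 3.35% of all genes. With the score in that setting it called 1, *Ago4*, an Argonaute, at 1.33 (DESeq2, adjusted p = 0.0172), beside 0.847%. At an unadjusted p under 0.05, 4 were higher and 2 lower in KO without the covariate, and 6 higher and 7 lower with it, of 109 genes each, beside 8.85% and 12.9% of all genes in either direction. For the leukocyte score the calls were 26 higher and 20 lower of 109, beside 22.4% and 14.6% of all genes. When 1 tumor was left out they ran from 19 to 28 higher and from 10 to 23 lower. Over all genes they then ran from 2531 to 3588 higher and from 1356 to 2472 lower. With the replicate block they were 17 and 3, beside 2033 and 459 of 15821 genes. The median log2 fold change of the pathway genes was 0.03, against 0.01 over all genes. When 1 tumor was left out it ran from -0.0163 without NTC replicate 1, against -0.0155 over all genes, to 0.0593 without NTC replicate 4, against 0.0056.

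In the BCL2 family, in which BIM acts, 9 of 11 genes were above 0, beside 51.3% of all genes. The median was 0.16 without the covariate and -0.016 with the leukocyte score, and 4 genes were higher with the score. *Bmf*, another BH3-only gene, had a log2 fold change of 0.35 (adjusted p = 0.638), and the effector *Bax* one of 0.16 (adjusted p = 0.689). The SCF ligases and the substrates of FBXW7 had a median of 0.00 without the covariate and 0.17 with the leukocyte score, with which 5 of 11 were lower and none higher. *Btrc*, a related receptor, was at 0.24 (adjusted p = 0.676), and the FBXW7 substrate *Jun* at -0.28, which became -0.51 with the leukocyte score (adjusted p = 0.249).

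The Hippo genes were below 0 in 13 of 17 cases, with a median of -0.11 that became -0.03 with the leukocyte score, and 5 were lower and 1 higher with the score. *Ccn1*, a transcriptional target of YAP, was at 37.1 ± 17.1 CPM in KO and 70.3 ± 26.9 CPM in NTC tumors (SD, n = 5), a log2 fold change of -0.94 with a standard error of 0.32 (edgeR, adjusted p = 0.401), and -0.72 with the leukocyte score (adjusted p = 0.338). *Wwtr1*, which encodes TAZ, was at -0.19 (adjusted p = 0.596). Of the TGF-β and SMAD genes, 9 of 14 were above 0, beside 51.3% of all genes, and 5 were higher with the leukocyte score. Their median was 0.09 without the covariate and -0.04 with the leukocyte score. *Smurf1* and *Smurf2*, ubiquitin ligases that SMAD7 recruits to the receptor, were at -0.22 (adjusted p = 0.537) and -0.14 (adjusted p = 0.657).

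Among the KLF factors, *Klf9* was at 47.9 ± 7.25 CPM in KO and 34.7 ± 4.50 CPM in NTC tumors, with a log2 fold change of 0.45 (adjusted p = 0.299). *Klf13* was at 0.56 (adjusted p = 0.497), and 5 of 11 KLF genes were higher with the leukocyte score and none lower. The RGS genes had the highest median of the 9 lists, 0.62, which became -0.0025 with the leukocyte score as a covariate. Of these 10 genes, 9 were higher with the score, including *Rgs2* at 0.72 per unit of score and *Rgs19* at 0.22. *Rgs2* had a log2 fold change of 1.14 without the covariate (adjusted p = 0.516) and 0.33 with it (adjusted p = 0.399), and *Rgs19* of 0.32 and 0.09.

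The coactivators and acetyltransferases were above 0 in 7 of 8 cases, beside 51.3% of all genes. Their median was 0.12 without the covariate and 0.098 with the leukocyte score. *Ncoa2*, a paralog of *Ncoa3*, was at 0.22 (adjusted p = 0.560) and *Ep300*, an acetyltransferase, at 0.27 (adjusted p = 0.652). In the JNK and p38 group, which had a median of -0.03, the kinases *Map3k4* and *Map2k3* were at -0.26 (adjusted p = 0.609) and 0.18 (adjusted p = 0.642). Of the miRNA machinery, *Ago1* was at 0.24 (adjusted p = 0.631) and *Ago2*, the Argonaute with slicer activity, at -0.37 (adjusted p = 0.610). The median of that list was 0.03.

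**Figure D4:**
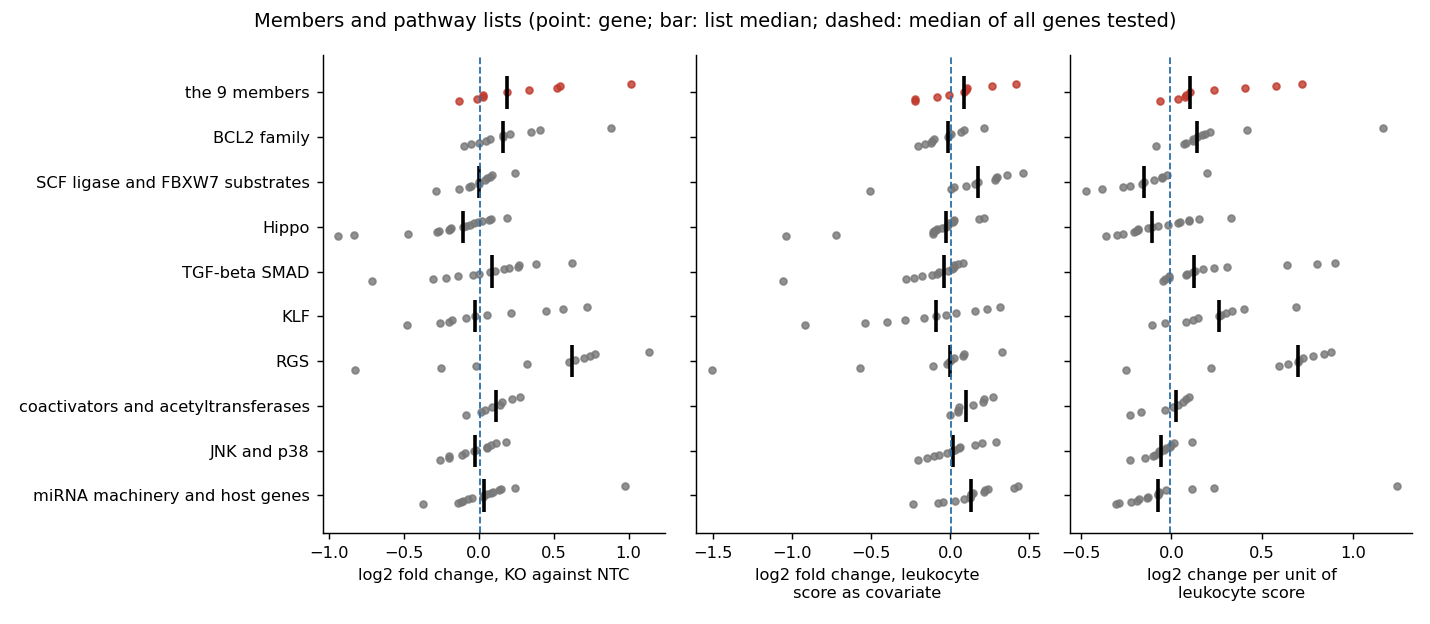
Each point is a gene of the 9 members (red) or of a pathway list (grey), placed by its log2 fold change without the covariate (left), with the leukocyte score as a covariate (middle) and by its log2 change per unit of the score (right). Black bars mark list medians and the dashed line the median of all genes tested; the RGS median is 0.62 on the left and near 0 in the middle.

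Across the 10 tumors, the genes with mean CPM of at least 10 whose log2 CPM followed each member most closely were compared by Pearson's r, as a description, since all points share libraries and depth. *Bcl2l11* was most like *Notch2* (r = 0.991), *Pgap1* (0.984) and *Cebpa* (0.982). *Ncoa3* was most like *Ankrd44* (0.992), *Myof* (0.992) and *Notch2* (0.989), so *Notch2* stood beside both. *Klf4* was most like *Rbm47* (0.988), *Ostf1* (0.987) and *Ptafr* (0.984).

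For the remaining members the closest genes were less alike. *Lats2* had *Rbpj* (0.970), *Tcf4* (0.964) and *Gab1* (0.956), and *Fbxw7* had *Zfyve16* (0.967), *Ric1* (0.963) and *Aig1* (0.929). *Kat2b* had *Tfeb* (0.966), *Hagh* (0.963) and *Dpp7* (0.962), and *Map2k4* had *Atp13a3* (0.974), *Pcbp1* (0.957) and *Naa35* (0.953). *Rgs3* followed *Pdcd4* (0.945), *Esr1* (0.934) and *Acsl5* (0.933), and *Smad7* followed *Stim1* (0.910), *Rap1gds1* (0.902) and *1810013L24Rik* (0.888). No gene other than *Notch2* appeared in the closest 3 of more than 1 member.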

How the data were processed

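Per the labels and the methods, the authors checked reads with FastQC, trimmed them with Trimmomatic, aligned them to mm10 with HISAT2, counted them with HTSeq and deposited raw counts per gene, without normalization. The strand setting and annotation of the counting are not given in the sources used here. The 5 summary rows were left out of library sizes. All 10 tumors were tested with edgeR 4.0.16 (R 4.3.3; TMM, filterByExpr, quasi-likelihood, Benjamini-Hochberg over 15821 genes, calls at an adjusted p under 0.05), without and with the leukocyte score as a covariate. A standard error is the size of the log2 fold change over the square root of edgeR's F. log2 CPM used a prior count of 2. Errors come from the negative binomial fit and the spread between tumors, and reads carry no molecular identifiers. Seeds were searched in GENCODE M21, an annotation of the same build that the authors may not have used. Sequences of miRNAs came from RefSeq and guides from the study's supplement.

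The members and lists were chosen with earlier results of these data known. The rule names 10 symbols, of which 1 is not reported here. All members are named; from each pathway list the text names genes called in either fit, otherwise the 2 with the smallest unadjusted p, and for likeness the 3 closest genes. Marker scores were compared by exact permutation. The older symbols Ctgf and Cyr61 are Ccn2 and Ccn1 in the files. The alternatives were DESeq2 1.42.0, RLE, other filters, robust dispersion, a fold threshold, a replicate block, other covariates and each tumor left out. DESeq2 with the score and without NTC replicate 1 was chosen after seeing the data. The fits were run on simulated counts with 200 changed genes. No difference in leukocyte content was simulated, so that run does not show how the fit with the score handles one. Python 3.11.15 was used for tables.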

Additional observations from a re-analysis of the deposited data

Results flagged for a closer look

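Each group's 9 members and 10 marker scores were searched for a tumor far from the other 4, by a gap to its nearest neighbor above 0.710 of the group's range, in 38 comparisons, of which chance alone gives about 1 in 20. No member was found in this way, and 3 scores were, all in NTC replicate 1. Its melanoma cell score was 9.27, and those of NTC replicates 2 to 5 ran from 10.4 to 10.5. Its keratinocyte score was -1.98 against -3.65 to -3.30, and its neutrophil score 3.58 against -1.56 to -0.61.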

How the results depend on the processing

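Of 486 results for single members under an alternative, 455 kept their direction and their side of the threshold. By edgeR, no alternative called a member between the groups, with or without the score, and the counts from leaving out each tumor ran from 0 to 0. DESeq2 called 1 member, *Bcl2l11*, with the leukocyte score, and 1, again *Bcl2l11*, without a filter and without NTC replicate 1. For the leukocyte score itself, 3 to 5 of 9 members were called when 1 tumor was left out, all higher with the score. Of all genes, from 2531 of 16078 (without NTC replicate 1) to 3588 of 16023 (without NTC replicate 5) were called higher in these fits.

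Signs changed for *Lats2*, *Kat2b* and *Map2k4*, and for *Klf4* with a covariate. *Lats2* went to 0.0312 without a filter, 0.0199 with the replicate block and 0.19 by DESeq2 without a filter and without NTC replicate 1, and ran from -0.11 to 0.17 when 1 tumor was left out. With the score it was -0.22 and ran from -0.34 to 0.00125, the latter without NTC replicate 1. *Kat2b* went to -0.0173 by DESeq2 without a filter and without NTC replicate 1 and ran from -0.0378 to 0.0718 when 1 tumor was left out. With the score it went to 0.0567 without a filter, 0.0246 with the replicate block and 0.0403 with the melanoma score, and ran from -0.125 to 0.0638. *Map2k4* ran from -0.0132 to 0.077. With the score, *Klf4* ran from -0.20 to 0.20, was 0.19 by DESeq2 without a filter and without NTC replicate 1, and went to 0.51 with the melanoma score in its place. The slope of *Kat2b* on the score was -0.0126 without a filter. The cause was not tested.

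Whether the replicate numbers pair the tumors is not known. The same-numbered tumors' deviations across genes correlated from -0.285 to 0.633, and 2 of 5 KO tumors matched their own number best. Differently numbered tumors also correlated, as KO replicate 5 and NTC replicate 1 did (0.621), so these values cannot decide it. With the replicate block edgeR called no member between the groups and 1 gene of all in place of 5. There, 4 of 9 members had an unadjusted p under 0.05 between the groups, beside 10.3% of all genes. For the score it called 3 of 9 members, all higher, beside 2033 of 15821 genes higher and 459 lower. *Lats2* was not among them (adjusted p = 0.111). Over all genes, calls ran from 1 to 31 without the covariate and from 1 to 46 with it, in place of 10, when 1 tumor was left out, and DESeq2 on the same 10 tumors gave 233 and 399. DESeq2 without a filter and without NTC replicate 1, which changes the tool, the filter and the tumors together, gave 1177 and 298. For the score itself they ran from 4395 to 6060 when 1 tumor was left out and from 2492 to 11188 under the other alternatives, in place of 5853. By edgeR, RLE and leaving out each tumor called 0 pathway genes in either fit. The seed count was 9 of 9 over all annotated 3′ UTRs, beside 6.93% of all protein-coding genes with one and 8.23% of those past the filter. The leukocyte score difference ran from 0.74 to 1.44 when 1 tumor was left out.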
